A study of Homo sapiens with 24 samples.

Results

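The genes described here are the protein arginine methyltransferases PRMT1, PRMT2, PRMT3, CARM1 (also called PRMT4), PRMT5, PRMT6, PRMT7 and PRMT9, together with WDR77 and CLNS1A, the partners of PRMT5. They were taken by symbol from the deposited table of read counts, which gave 10 of its 23354 genes, and the rule used no measured value. The members were, however, chosen with earlier results of these data known. All 10 passed the filter on low counts in both cell lines and were tested in every comparison. After 24 h with 8AA in KG-1a cells, 7 of them fell, led by WDR77, PRMT3, PRMT1 and PRMT5, and PRMT2 rose, where 26.6% of all genes tested were called lower and 25.4% higher. PRMT9 was also called higher there (edgeR, adjusted p = 0.0444), but not on leaving out any 1 of the 4 libraries compared, nor by DESeq2. PRMT2 rose with 8AA in both lines at both times, and its level with 8AA was above that with 8CA each time.

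MV4-11 and KG-1a are established human cell lines, labelled as acute myeloid leukemia (AML) with a wild-type (WT) genotype, and their RNA was sequenced. Cells of each line were left untreated or were treated with 1 μM 8CA (8-chloro-adenosine) or 1 μM 8AA (8-amino-adenosine). RNA was taken at 8 h or 24 h, which makes 12 groups of 2 libraries, 24 in all. 8CA and 8AA are analogs of the nucleoside adenosine that differ in the group on position 8 of the base, a chlorine atom or an amino group. The study asked what both drugs do to methionine metabolism, in which MAT2A makes S-adenosylmethionine (SAM), the methyl donor that arginine methyltransferases use. All groups were grown in the same medium with serum and antibiotics, the untreated cells included. Each disease model is a single cell line, and the labels do not say whether replicates A and B came from separate cultures, so the p-values measure the spread between these libraries, which may be technical.

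Arginine methyltransferases move a methyl group from SAM to arginine side chains of histones and RNA-binding proteins. Type I enzymes (PRMT1, PRMT2, PRMT3, CARM1, PRMT6) make asymmetric dimethylarginine, type II enzymes (PRMT5, PRMT9) make symmetric dimethylarginine, and PRMT7, the type III enzyme, makes monomethylarginine. PRMT5 works in a complex with the WD-repeat protein WDR77, and CLNS1A brings it the Sm proteins of the splicing machinery.

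Total counts lay between 18633963 and 24520078 per library, and the members had from 237 to 6979 reads in a library, with PRMT9 the lowest and PRMT1 the highest. Levels are given as CPM, counts scaled to a common library total, after TMM scaling, a correction for the composition of each library, and changes as log2 fold changes with their standard error (SE). A change was called at an adjusted p below 0.05, from the quasi-likelihood test of edgeR and the Benjamini-Hochberg method over all genes of the fit. In the replicates of 11 groups the counts differed by 1.43 to 5.20 times the chance expectation (chi-square per degree of freedom), and in KG-1a with 8AA at 24 h by 12.25 times. MV4-11 libraries held transcripts of FLT3, SPI1, CD33 and CEBPA, whereas in KG-1a CD33, MPO, FLT3 and CSF1R were close to 0 and MEIS1 was at 0 in all 12 libraries, with CD34 at 325 to 629 CPM. Of the same 10 markers, KG-1a also held PTPRC (688 to 788 CPM), CEBPA (58.2 to 88.5), HOXA9 (22.26 to 27.85) and SPI1 (5.86 to 7.81). MV4-11 also held PTPRC (80.9 to 152 CPM), MEIS1 (85.2 to 104), CSF1R (36.49 to 64.05), MPO (8.01 to 13) and HOXA9 (7.11 to 9.40), with CD34 at 0 to 0.17 CPM. Of 7 marker genes of other cell types, HBG1, HBA1 and EPCAM were at 0 in all 24 libraries, and CD3E, a T cell receptor chain, was at 0 in MV4-11 and at 22.2 to 78.3 CPM in KG-1a.

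The promoters of WDR77, PRMT3 and PRMT1, with the largest falls, and of PRMT2, with the largest rise, are shown first. Those of PRMT5 and PRMT6, which moved more than PRMT2, are not printed. RefSeq windows on GRCh38.p14 were matched for all 10 members, with 250 bases before a listed start and 50 bases from it on. For PRMT1 the window did not hold the gene start at 49676153 on chromosome 19, and lay downstream of it. There were 12 windows, since CARM1 and PRMT7 had more than 1. Each is written 5′ to 3′ on the strand of the gene, and capitals mark the E-box CACGTG, a motif bound by MYC and related factors.

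The window of WDR77 is chr1:111449207-111449506 (strand −), that of PRMT3 chr11:20387466-20387765 (strand +), that of PRMT1 chr19:49677021-49677320 (strand +) and that of PRMT2 chr21:46635424-46635723 (strand +).
WDR77: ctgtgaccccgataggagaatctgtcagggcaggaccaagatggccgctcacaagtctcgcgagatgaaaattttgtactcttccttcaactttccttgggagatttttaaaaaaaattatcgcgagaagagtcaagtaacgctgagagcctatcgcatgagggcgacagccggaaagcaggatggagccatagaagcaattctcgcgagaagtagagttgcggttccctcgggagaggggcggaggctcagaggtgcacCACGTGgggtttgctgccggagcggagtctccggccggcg
PRMT3: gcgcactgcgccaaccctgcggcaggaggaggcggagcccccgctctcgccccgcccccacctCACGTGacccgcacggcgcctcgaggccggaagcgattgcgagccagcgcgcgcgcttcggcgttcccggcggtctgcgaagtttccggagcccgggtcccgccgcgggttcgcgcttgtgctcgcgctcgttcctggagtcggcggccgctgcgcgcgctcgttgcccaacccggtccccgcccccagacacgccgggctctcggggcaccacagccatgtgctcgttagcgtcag
PRMT1: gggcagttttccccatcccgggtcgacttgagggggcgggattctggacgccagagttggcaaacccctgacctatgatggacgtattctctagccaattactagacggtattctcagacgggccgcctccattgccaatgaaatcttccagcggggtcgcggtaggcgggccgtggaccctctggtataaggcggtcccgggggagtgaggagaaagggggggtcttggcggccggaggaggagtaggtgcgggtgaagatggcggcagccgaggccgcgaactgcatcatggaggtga
PRMT2: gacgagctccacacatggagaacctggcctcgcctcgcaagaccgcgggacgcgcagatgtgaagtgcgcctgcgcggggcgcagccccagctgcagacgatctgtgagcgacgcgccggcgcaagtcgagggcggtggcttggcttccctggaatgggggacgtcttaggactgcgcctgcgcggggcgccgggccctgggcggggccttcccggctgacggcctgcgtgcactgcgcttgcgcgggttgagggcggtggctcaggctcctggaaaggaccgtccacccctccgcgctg

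With the start base counted as 1 and no base as 0, the E-box was found in WDR77 at position 11 and in PRMT3 at −187. No window of the other 8 members held it. Of all 35116 promoter windows of the same length, 7.26% held it. The GC box GGGCGG was found in 8 members and in 45.0% of all windows, the CCAAT box CCAAT in PRMT1 and PRMT5 and in 34.6%, and the ETS motif CCGGAA in PRMT3, WDR77 and CLNS1A and in 17.2%. The YY1 motif AAGATGG stood in PRMT1, PRMT5 and WDR77 (5.84% of windows), the NRF1 motif in PRMT2 (5.78%), and the cAMP response motif TGACGT in PRMT9 (7.98%). The TATA motif TATAAA was in no member and in 11.5% of windows. Both strands were searched, and CACGTG and TGACGT share the letters ACGT. A match describes the letters of a window and is not a binding site.

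In untreated cells the members spanned a wide range of levels. Per kilobase of the exon length given in the table, CLNS1A was highest, with a mean of 167 ± 4.39 CPM per kb in MV4-11 and 187 ± 4.84 in KG-1a (SD, n = 4 untreated libraries, both times). PRMT1, which carries most type I activity in many cells, followed with 140 ± 7.25 in MV4-11 and 92.3 ± 9.05 in KG-1a, and PRMT5 came next with 78.3 ± 3.59 and 57.6 ± 6.13 CPM per kb. The lowest were PRMT2, with 8.96 ± 0.363 in MV4-11 and 6.78 ± 0.209 in KG-1a, and PRMT9, with 5.56 ± 0.294 and 4.13 ± 0.129 CPM per kb. The table gives PRMT2 an exon length of 8.42 kb, the longest of the 10, which enters its per-length value. Between them, MV4-11 had CARM1 (56.2), WDR77 (27.8), PRMT7 (22.8), PRMT3 (19.1) and PRMT6 (17.1), and KG-1a had WDR77 (38.2), CARM1 (31.5), PRMT3 (24.0), PRMT6 (18.3) and PRMT7 (13.0), all as mean CPM per kb. The ranges of neighbours in this order did not overlap in KG-1a, and in MV4-11 they overlapped for PRMT3 (18.1 to 20.1) and PRMT6 (16.3 to 18.2).

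**Figure D1:**
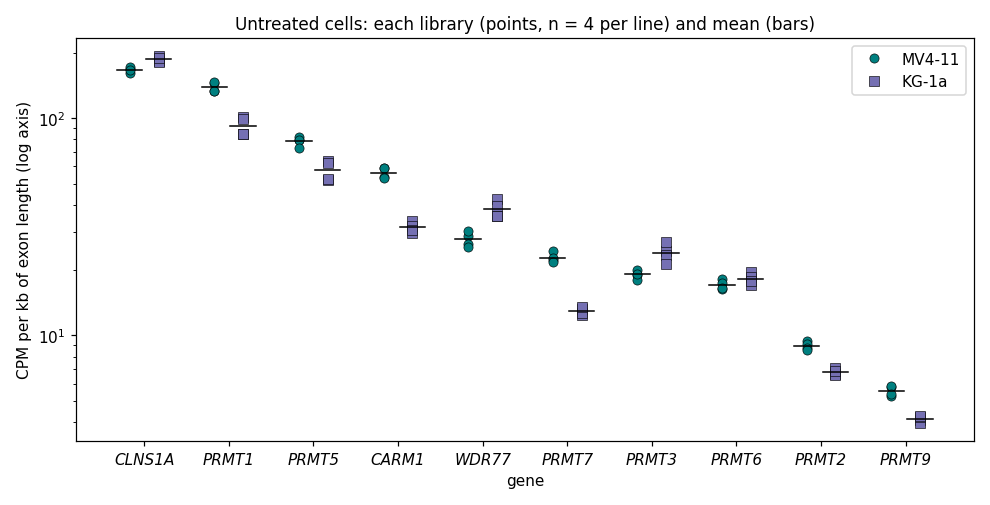
CPM per kb of exon length (log axis) of each gene in untreated MV4-11 (circles) and KG-1a (squares), with 1 point for each of 4 libraries per line and a bar at the mean. CLNS1A and PRMT1 stand at the top in both lines and PRMT9 at the bottom, and PRMT7 and CARM1 lie higher in MV4-11.

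Untreated MV4-11 and KG-1a were compared in a fit of all 24 libraries, where 9 of 10 members differed at each time, 6 higher and 3 lower in MV4-11. Among all 14055 genes, 42.1% were lower and 40.1% higher in MV4-11 at 8 h, and 41.0% lower and 41.0% higher at 24 h, so that members differed about as often as other genes. PRMT7 and CARM1, the type I enzyme known as a coactivator of transcription, were higher in MV4-11, with log2 differences of 0.86 (SE 0.066, adjusted p = 1.37e-11) and 0.85 (SE 0.061, adjusted p = 4.39e-12) at 8 h and of 0.76 and 0.82 at 24 h. WDR77 was lower in MV4-11, at −0.47 at 8 h and −0.45 at 24 h, and PRMT3 at −0.40 and −0.26. PRMT6 was not called at either time, with log2 differences of −0.10 (95% interval −0.22 to 0.015) at 8 h and −0.089 (95% interval −0.21 to 0.029) at 24 h. The call of PRMT3 at 24 h was lost without KG-1a untreated replicate A (adjusted p = 0.0564), and that of CLNS1A at 8 h without MV4-11 untreated replicate A (adjusted p = 0.0505). Scaled by library size alone, the median of all genes in the comparison at 24 h shifted by −0.11, and the called members kept their direction under each scaling.

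Time in culture alone moved few members. In untreated MV4-11, 0 members were called at 24 h against 8 h by edgeR and 0 by DESeq2, and 3 (PRMT1, CARM1, WDR77) were lower at an unadjusted p under 0.05, against 2.16% lower and 3.38% higher among all 12800 genes. In untreated KG-1a, PRMT1 with −0.23 (SE 0.060, adjusted p = 0.0416) and PRMT5 with −0.25 (SE 0.061, adjusted p = 0.0313) were lower at 24 h, against 1.97% lower and 2.49% higher among 12711 genes. Both calls were lost on leaving out any 1 of the 4 libraries, with adjusted p up to 0.233 and 0.219. Each treated group was set against the untreated libraries of its own time.

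**Figure D2:**
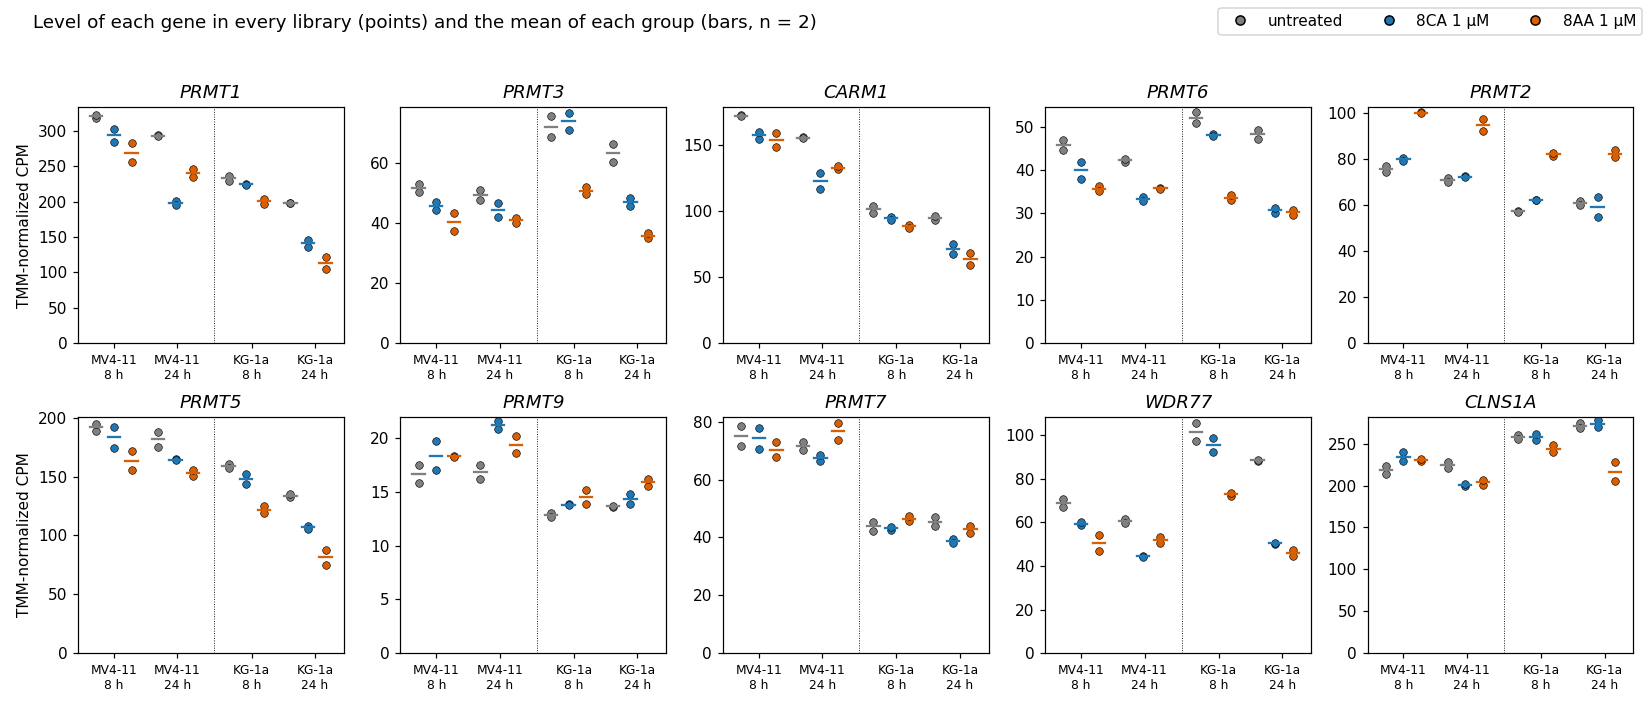
TMM-normalized CPM of each gene (y axes from 0) in untreated (grey), 8CA (blue) and 8AA (orange) libraries, by cell line and hours, with 1 point per library and a bar at the mean of 2. Levels of WDR77, PRMT1 and PRMT3 in KG-1a step down at 24 h, and both 8AA libraries of PRMT2 lie above the other libraries of their line and time.

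Against untreated cells of the same time, most members fell with 8AA, and with 8CA they fell mainly at 24 h. In MV4-11 at 8 h, 1 member was lower with 8CA and 0 were higher, against 5.77% lower and 4.58% higher among all genes. With the replicate letter as a block in the fit, 3 members were called there. With 8AA 6 were lower and 1 higher, against 15.6% and 13.6%. At 24 h in this line, 5 were lower and 1 higher with 8CA (22.7% and 21.2% of all genes), and 7 lower and 1 higher with 8AA (15.3% and 13.9%). KG-1a had 0 members called with 8CA at 8 h, 0 at an unadjusted p under 0.05 and 0 by DESeq2, where 0.181% of all genes were lower and 0.700% higher. With 8AA at 8 h it had 6 lower and 1 higher (18.0% and 16.7% of all genes). With 8CA at 24 h it had 7 lower and 0 higher (24.0% and 23.4%), and with 8AA at 24 h 7 lower and 2 higher (26.6% and 25.4%). Without untreated replicate A, 5 members in place of 8 were called in MV4-11 with 8AA at 24 h. The shares of members called lower were above those of all genes in each comparison with calls, and the shares called higher, 0 to 2 members, were below them. Of 10 members, counts of 0 to 2 are too few to set apart from the shares of all genes. This also holds for the 1 member called lower in MV4-11 with 8CA at 8 h, beside 5.77%. The median log2 fold change of the 10 members was −0.62 in KG-1a with 8AA at 24 h and −0.37 with 8CA, beside 0.013 and 0.0065 over all genes tested. In MV4-11 at 24 h it was −0.22 with 8AA and −0.16 with 8CA, beside 0.0032 and 0.0022. The comparisons with 8CA and with 8AA of a line and time share their untreated libraries, and in such bulk RNA fewer cells that express a gene and less RNA per cell cannot be told apart. Scaled by library size alone, the lower share of all called genes moved from 51.2% to 35.5% in KG-1a with 8AA at 24 h and from 51.9% to 41.8% with 8AA at 8 h. It moved from 52.4% to 36.2% in MV4-11 with 8AA at 24 h, from 51.8% to 41.1% with 8CA at 24 h, and at 8 h from 53.4% to 38.8% with 8AA and from 55.8% to 38.3% with 8CA. The members called lower and higher were then 7 and 2, 5 and 1, 4 and 2, 5 and 1, 5 and 2, and 0 and 1 in the same order.

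**Figure D3:**
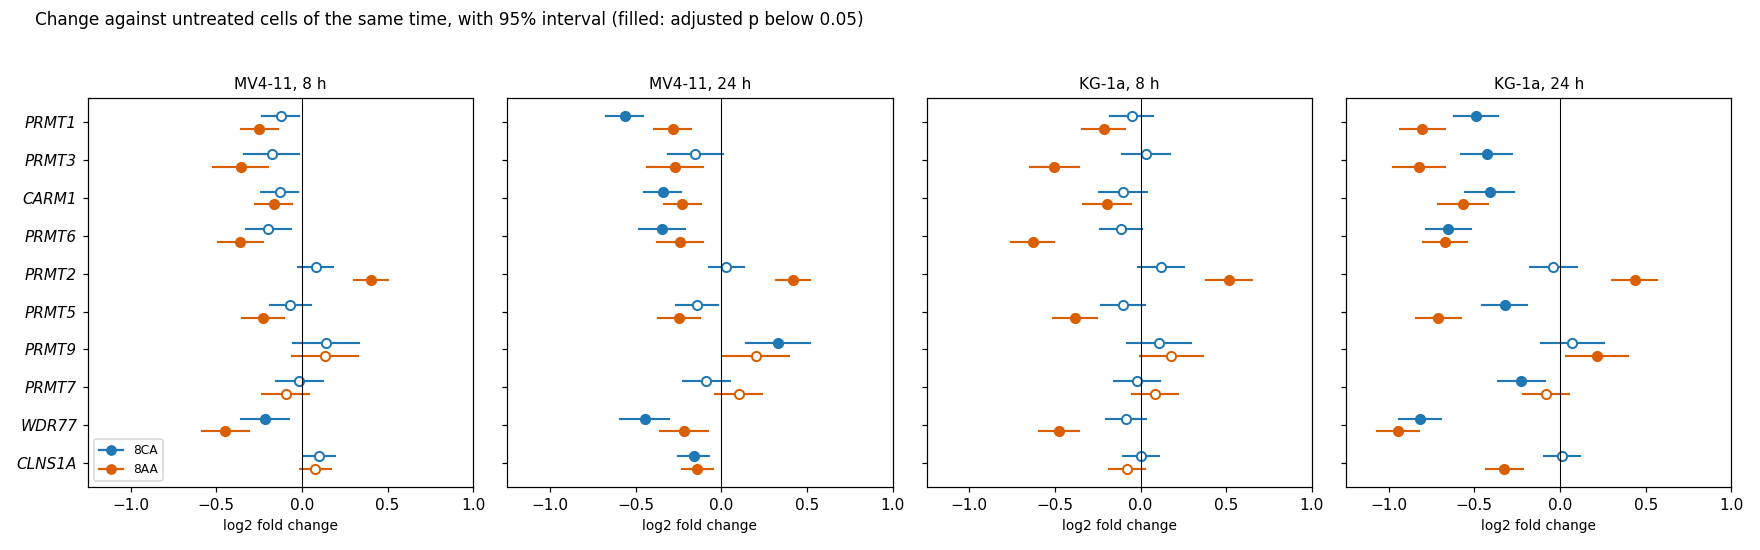
Log2 fold change of each gene against untreated cells of the same line and time with its 95% interval, for 8CA (blue) and 8AA (orange). Filled points have an adjusted p below 0.05, and in KG-1a at 24 h the 8AA points of WDR77, PRMT3, PRMT1 and PRMT5 lie between −0.95 and −0.71.

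WDR77, the partner that PRMT5 needs for full activity, was called lower in 7 of 8 comparisons, the most of any member. WDR77 in KG-1a at 8 h stood at 106 and 97.3 CPM in untreated, 92.2 and 98.8 CPM in 8CA and 72.3 and 73.4 CPM in 8AA libraries. At 24 h it had 88.3 and 88.9 CPM in untreated, 50.2 and 50.5 CPM in 8CA and 47.3 and 44.7 CPM in 8AA libraries. The treated libraries lay below the untreated ones at both times with 8AA and at 24 h with 8CA, and overlapped them with 8CA at 8 h. How often the libraries of other genes separate in this way was not counted, for WDR77 or for the members below. At 24 h in KG-1a the log2 fold change was −0.95 (SE 0.058, adjusted p = 4.76e-09) with 8AA, a fall by 48.1%. It was −0.82 (SE 0.058, adjusted p = 3.07e-08) with 8CA, and at 8 h it was −0.47 (SE 0.055, adjusted p = 1.14e-05) with 8AA. WDR77 in MV4-11 at 8 h stood at 67.3 and 70.8 CPM in untreated, 58.6 and 60.4 CPM in 8CA and 46.7 and 54.4 CPM in 8AA libraries. The 24 h values were 61.6 and 59.5 CPM in untreated, 44.6 and 44.1 CPM in 8CA and 53.3 and 50.8 CPM in 8AA libraries. Every treated library of MV4-11 lay below the untreated libraries of its time. Here the changes were −0.45 (SE 0.066, adjusted p = 0.000123) with 8AA at 8 h and −0.45 (SE 0.066, adjusted p = 6.25e-05) with 8CA at 24 h. They were −0.22 (SE 0.066, adjusted p = 0.0202) with 8AA at 24 h and −0.22 (SE 0.065, adjusted p = 0.0462) with 8CA at 8 h. The last call was lost on leaving out any of its 4 libraries (adjusted p up to 0.169), and that with 8AA at 24 h without untreated replicate A or 8AA replicate B (up to 0.114). The deposited table places WDR77 at chr1:111982512-111991830 on the minus strand, where ATP5F1, a gene on the plus strand with a mean of 5596 reads per library, overlaps it. Strand use in the counting is not given in the sources used here, and how reads in the shared part were assigned was not tested.

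PRMT1 was called lower in 6 of 8 comparisons and was the member with the largest fall in MV4-11. PRMT1 in MV4-11 at 8 h stood at 318 and 322 CPM in untreated, 285 and 302 CPM in 8CA and 255 and 283 CPM in 8AA libraries. The 24 h values were 294 and 292 CPM in untreated, 200.1 and 196 CPM in 8CA and 235 and 246 CPM in 8AA libraries. All treated libraries of this line were below their untreated ones, and at 24 h those with 8CA were the lowest. The change there was −0.56 (SE 0.051, adjusted p = 4.92e-07) with 8CA, a fall by 32.4%, and −0.28 (SE 0.050, adjusted p = 0.000596) with 8AA. At 8 h it was −0.25 (SE 0.050, adjusted p = 0.00158) with 8AA and −0.12 (SE 0.050, adjusted p = 0.126) with 8CA, which was not called. PRMT1 in KG-1a at 8 h stood at 236 and 229 CPM in untreated, 225 and 224 CPM in 8CA and 204 and 196 CPM in 8AA libraries. At 24 h it had 198 and 198 CPM in untreated, 146 and 136 CPM in 8CA and 122 and 105 CPM in 8AA libraries. In KG-1a the order of the drugs at 24 h was the other way, with 8AA below 8CA and 8CA below untreated, without overlap. The changes were −0.80 (SE 0.061, adjusted p = 4.41e-08) with 8AA and −0.49 (SE 0.061, adjusted p = 9.18e-06) with 8CA at 24 h, and −0.22 (SE 0.059, adjusted p = 0.0101) with 8AA at 8 h, a call lost without untreated replicate A or 8AA replicate B (adjusted p up to 0.0978).

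PRMT3, a cytosolic enzyme that methylates the ribosomal protein RPS2, had the lowest change after WDR77 in KG-1a with 8AA at 24 h. PRMT3 in KG-1a at 8 h stood at 68.6 and 75.5 CPM in untreated, 71.0 and 76.4 CPM in 8CA and 49.7 and 51.9 CPM in 8AA libraries. At 24 h it had 66.2 and 60.3 CPM in untreated, 45.6 and 48.5 CPM in 8CA and 34.9 and 36.7 CPM in 8AA libraries. Its 8AA libraries were below the untreated ones at both times, while with 8CA they overlapped at 8 h and were below at 24 h. The log2 fold changes were −0.51 (SE 0.067, adjusted p = 3.73e-05) with 8AA at 8 h, −0.82 (SE 0.071, adjusted p = 1.47e-07) with 8AA at 24 h and −0.43 (SE 0.069, adjusted p = 0.000114) with 8CA at 24 h. In MV4-11 PRMT3 changed by −0.36 (SE 0.076, adjusted p = 0.00240) with 8AA at 8 h and by −0.27 (SE 0.076, adjusted p = 0.0146) at 24 h, from 53.0 and 50.3 to 43.5 and 37.3 CPM and from 47.7 and 50.9 to 41.7 and 40.0 CPM. The call at 24 h was lost without untreated replicate B or 8AA replicate B (adjusted p up to 0.121), and with 8CA PRMT3 was not called in this line, with −0.18 (95% interval −0.34 to −0.016) at 8 h and −0.15 (95% interval −0.31 to 0.0089) at 24 h.

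CARM1 and PRMT6, a nuclear enzyme that methylates histone H3, were each called lower in 6 of 8 comparisons. PRMT6 had 47.1 and 49.4 CPM in untreated KG-1a at 24 h, 30.1 and 31.3 with 8CA, and 30.9 and 29.6 in the 8AA libraries. Its values at 8 h were 53.4 and 50.9 CPM untreated, 48.4 and 48.0 with 8CA, and 33.1 and 34.2 in the 8AA libraries. The fall was already present at 8 h with 8AA, at −0.63 (SE 0.060, adjusted p = 1.69e-06), and at 24 h it was −0.67 (SE 0.061, adjusted p = 2.79e-07) with 8AA and −0.65 (SE 0.061, adjusted p = 6.38e-07) with 8CA. In MV4-11, PRMT6 went from 46.9 and 44.8 CPM to 41.9 and 38.0 (8CA) or 36.3 and 35.2 (8AA) at 8 h. At 24 h it went from 42.0 and 42.7 to 33.8 and 32.8 (8CA) or 36.0 and 35.6 (8AA). No treated library reached an untreated one. With 8CA at 8 h the change was −0.20 (SE 0.062, adjusted p = 0.0566) and was not called. The changes were −0.36 (SE 0.062, adjusted p = 0.000483) with 8AA at 8 h, −0.35 (SE 0.063, adjusted p = 0.000349) with 8CA at 24 h and −0.24 (SE 0.063, adjusted p = 0.00865) with 8AA at 24 h, a call lost without untreated replicate B (adjusted p = 0.0522). CARM1 fell most in KG-1a at 24 h, from 92.8 and 96.0 CPM to 74.7 and 67.2 (8CA) or 68.4 and 59.0 (8AA). These changes were −0.41 (SE 0.068, adjusted p = 0.000139) and −0.57 (SE 0.068, adjusted p = 4.85e-06). In MV4-11 at 24 h it went from 156 and 155 CPM to 117 and 128 (8CA) or 131 and 134 (8AA). These changes were −0.34 (SE 0.051, adjusted p = 6.51e-05) and −0.23 (SE 0.051, adjusted p = 0.00342), again without overlap. Its calls at 8 h with 8AA were small, −0.16 (SE 0.050, adjusted p = 0.0226) in MV4-11 and −0.20 (SE 0.066, adjusted p = 0.0294) in KG-1a. They were lost without either untreated replicate or 8AA replicate A in MV4-11 (adjusted p up to 0.169) and without untreated replicate A or either 8AA replicate in KG-1a (up to 0.180). The MV4-11 call was also lost with library size alone, upper-quartile scaling and 4 or 24 libraries in the fit, and the KG-1a call with library size alone. YIPF2, on the other strand with a mean of 835 reads per library, overlaps CARM1 in the deposited table.

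PRMT2, a type I enzyme with an SH3 domain that acts as a coactivator of nuclear receptors, went the other way. PRMT2 in MV4-11 at 8 h stood at 77.0 and 74.4 CPM in untreated, 80.7 and 79.3 CPM in 8CA and 100.4 and 99.9 CPM in 8AA libraries. The 24 h values were 71.8 and 70.2 CPM in untreated, 72.6 and 72.2 CPM in 8CA and 97.4 and 92.3 CPM in 8AA libraries. The 8AA libraries were the highest at each time. PRMT2 in KG-1a at 8 h stood at 57.7 and 57.2 CPM in untreated, 62.3 and 62.5 CPM in 8CA and 81.4 and 82.9 CPM in 8AA libraries. At 24 h it had 61.9 and 59.9 CPM in untreated, 54.8 and 63.8 CPM in 8CA and 83.9 and 80.8 CPM in 8AA libraries. Here too both 8AA libraries were above the untreated and the 8CA libraries at each time. With 8AA it rose by 0.40 (SE 0.047, adjusted p = 1.72e-05) at 8 h and 0.42 (SE 0.048, adjusted p = 1.60e-05) at 24 h in MV4-11, and by 0.52 (SE 0.063, adjusted p = 1.62e-05) and 0.44 (SE 0.063, adjusted p = 3.00e-05) in KG-1a, which is between 32.3% and 43.0%. With 8CA it was called in 0 of 4 comparisons by edgeR and 0 of 4 by DESeq2, with none at an unadjusted p under 0.05, and the changes were 0.080 (95% interval −0.022 to 0.18) and 0.028 (95% interval −0.074 to 0.13) in MV4-11 and 0.12 (95% interval −0.018 to 0.26) and −0.040 (95% interval −0.18 to 0.096) in KG-1a. All 4 calls with 8AA held in each fit that left out a library and under each alternative scaling and filter, with other libraries in the fit, with the replicate letter as a block and by DESeq2. With a log2 fold of 0.5 also required, only the call in KG-1a at 8 h was left.

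PRMT5, the main type II enzyme, fell with 8AA in both lines and with 8CA in KG-1a at 24 h. PRMT5 in KG-1a at 8 h stood at 161 and 157 CPM in untreated, 152 and 144 CPM in 8CA and 125 and 119 CPM in 8AA libraries. At 24 h it had 133 and 135 CPM in untreated, 108 and 106 CPM in 8CA and 87.9 and 75.2 CPM in 8AA libraries. Treated libraries were below the untreated ones of their time in each KG-1a group. With 8CA at 8 h the change there was −0.10 (95% interval −0.23 to 0.025) and was not called. The changes were −0.38 (SE 0.061, adjusted p = 0.000170) with 8AA at 8 h, −0.32 (SE 0.062, adjusted p = 0.000497) with 8CA at 24 h and −0.71 (SE 0.063, adjusted p = 1.90e-07) with 8AA at 24 h, a fall by 38.9%. PRMT5 in MV4-11 at 8 h stood at 189 and 195 CPM in untreated, 175 and 192 CPM in 8CA and 156 and 172 CPM in 8AA libraries. The 24 h values were 188 and 175 CPM in untreated, 165 and 164 CPM in 8CA and 150.2 and 156 CPM in 8AA libraries. In MV4-11 the 8AA libraries were below the untreated ones at both times, at −0.23 (SE 0.057, adjusted p = 0.00697) at 8 h and −0.25 (SE 0.058, adjusted p = 0.00448) at 24 h, and with 8CA the change was not called, with −0.067 (95% interval −0.19 to 0.055) at 8 h and −0.14 (95% interval −0.26 to −0.021) at 24 h. The 8AA calls were lost at 8 h without 8AA replicate A (adjusted p = 0.0823) and at 24 h without untreated replicate A (adjusted p = 0.0558). RefSeq lists pseudogenes of PRMT5, PRMT1, CARM1, WDR77 and CLNS1A, and reads shared with such copies may have been split or dropped in the counting.

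CLNS1A, the highest of the 10 per length, was called lower in 3 of 8 comparisons. In KG-1a at 24 h it had 275 and 269 CPM untreated, 278 and 269 with 8CA, and 228 and 205 in the 8AA libraries. The 8AA libraries were below all others and those with 8CA overlapped the untreated ones. Its change was −0.33 (SE 0.050, adjusted p = 5.77e-05) with 8AA and 0.011 (95% interval −0.095 to 0.12) with 8CA, and WDR77, the other PRMT5 partner, fell with both drugs. In MV4-11 at 24 h it went from 228 and 221 CPM to 199 and 202 (8CA) or 201 and 207 (8AA). These changes were −0.16 (SE 0.043, adjusted p = 0.00624) and −0.14 (SE 0.043, adjusted p = 0.0230). These calls were lost without untreated replicate A for 8CA (adjusted p = 0.0615) and without untreated replicate A or 8AA replicate A for 8AA (up to 0.123). At 8 h it was not called, with changes from −0.080 to 0.10.

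PRMT7 and PRMT9 were called in 1 and 2 of 8 comparisons. PRMT9, which methylates the splicing factor SF3B2, had 17.5 and 16.2 CPM in untreated MV4-11 at 24 h and 20.9 and 21.5 with 8CA, a rise by 0.33 (SE 0.088, adjusted p = 0.00633) that was lost without untreated replicate B (adjusted p = 0.0752). In KG-1a at 24 h it went from 13.6 and 13.7 to 15.5 and 16.2 CPM with 8AA, by 0.21 (SE 0.085, adjusted p = 0.0444), and this call was lost on leaving out any of its 4 libraries (adjusted p up to 0.171) and by DESeq2. In the other 6 comparisons its change lay between 0.072 and 0.20 and was not called. PRMT7 was called in 1 comparison, KG-1a with 8CA at 24 h, where it went from 43.8 and 46.9 to 39.3 and 38.1 CPM, with a log2 change of −0.23 (SE 0.064, adjusted p = 0.00858). That call was lost without untreated replicate B or 8CA replicate B (adjusted p up to 0.0936), and elsewhere the change of PRMT7 lay between −0.094 and 0.10.

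In KG-1a with 8AA at 24 h, where the falls were largest, CD3E was at 72.7 ± 8.01 CPM against 36.5 ± 0.206 in untreated cells (SD, n = 2), and the 7 markers of other cell types summed to 67.5 to 79.1 CPM against 36.6 to 37.2. The 10 myeloid and leukemia markers summed to 1468 to 1476 CPM there, against 1263 to 1274 in untreated cells. Among them CD34 was at 595 ± 48.6 CPM against 410 ± 5.13 in untreated cells. CD33 was at 0.635 against 0.691 CPM and FLT3 at 1.22 against 0.808 CPM, so the sums do not show that each marker rose. The replicates of this group were also the least alike, and leaving out either left 8 members called of 9, with PRMT9 lost. What these differences contribute to the changes of the members was not tested.

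8AA and 8CA, which differ by an amino group in place of chlorine, were compared directly at the same dose, time and line, in 4 pairs for each gene. PRMT2 was higher with 8AA in all 4, by 0.32 (SE 0.047, adjusted p = 0.000815) and 0.39 (SE 0.047, adjusted p = 3.43e-05) in MV4-11 at 8 h and 24 h, and by 0.40 (SE 0.062, adjusted p = 0.000212) and 0.48 (SE 0.062, adjusted p = 2.14e-05) in KG-1a. In MV4-11 at 8 h, 1 member was lower and 1 higher with 8AA than with 8CA, against 3.70% lower and 2.96% higher among all genes. At 24 h 0 were lower and 4 higher, against 9.48% and 11.7%. KG-1a had 5 lower and 1 higher at 8 h (15.8% and 14.7% of all genes) and 4 lower and 1 higher at 24 h (21.7% and 20.3%). In KG-1a at 8 h, PRMT3 was lower with 8AA at −0.54 (SE 0.067, adjusted p = 2.99e-05), PRMT6 at −0.52 (SE 0.060, adjusted p = 1.54e-05), WDR77 at −0.39 (SE 0.055, adjusted p = 9.13e-05) and PRMT5 at −0.28 (SE 0.061, adjusted p = 0.00261). At 24 h PRMT3 (−0.39, SE 0.072, adjusted p = 0.000417), PRMT5 (−0.39, SE 0.063, adjusted p = 0.000157), CLNS1A (−0.34, SE 0.050, adjusted p = 6.84e-05) and PRMT1 (−0.31, SE 0.062, adjusted p = 0.000824) were lower with 8AA. There PRMT6, with −0.020 (95% interval −0.15 to 0.12), WDR77, with −0.13 (95% interval −0.26 to −0.0020), and CARM1, with −0.15 (95% interval −0.30 to −0.0081), were not called, and these intervals bound the difference between the drugs. In MV4-11 at 24 h the drugs stood in the opposite order for PRMT1, which was higher with 8AA by 0.28 (SE 0.051, adjusted p = 0.00116). The remaining calls were small, and each was lost without 3 or 4 of its 4 libraries in turn. They were WDR77 in MV4-11 (−0.23 at 8 h, 0.23 at 24 h), PRMT7 in MV4-11 at 24 h (0.19) and PRMT1 in KG-1a at 8 h (−0.17). Their adjusted p rose up to 0.340, 0.160, 0.304 and 0.243. CARM1 and PRMT9 were called in none of the 4 pairs by edgeR, with differences from −0.15 to 0.11 and from −0.13 to 0.14, and CARM1 was past an unadjusted p of 0.05 in 2 of the 4.

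**Figure D4:**
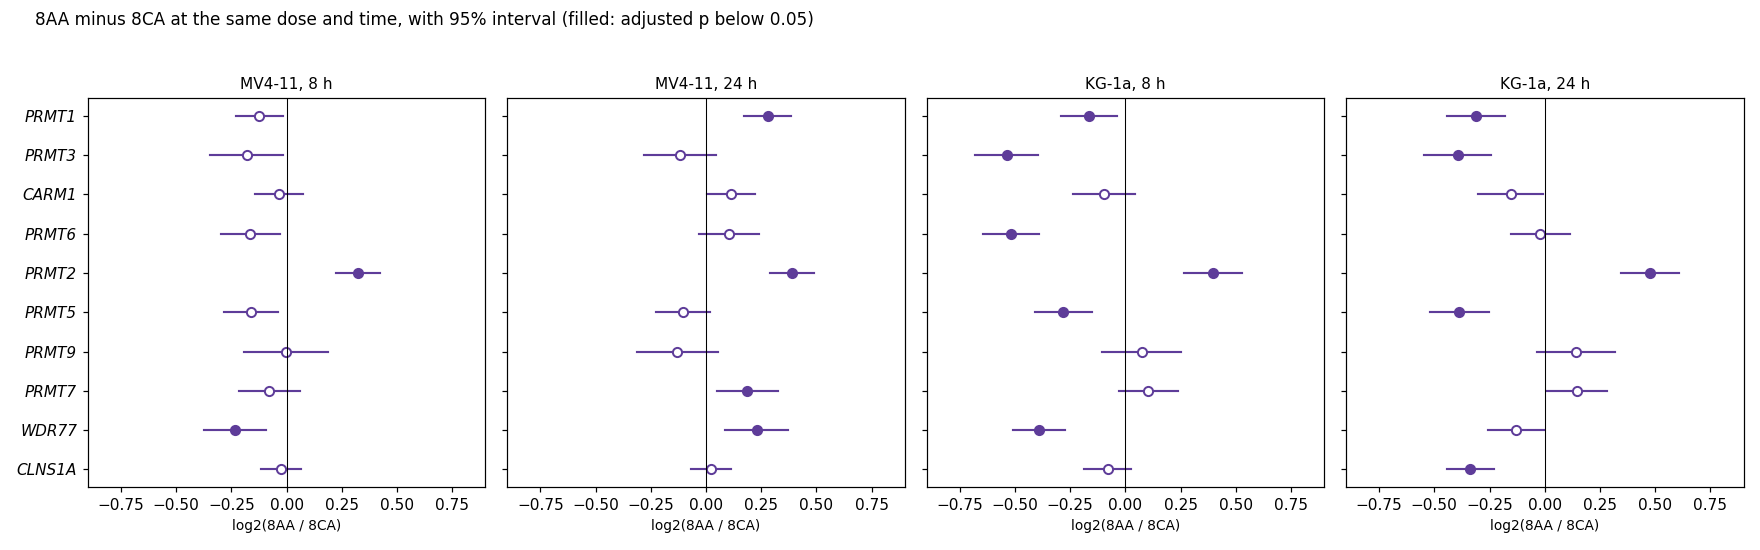
Log2 ratio of 8AA to 8CA at the same line and time with its 95% interval for each gene, filled where the adjusted p is below 0.05. PRMT2 lies above 0 in all 4 panels, and PRMT3 and PRMT5 lie below 0 in both KG-1a panels.

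Whether a change at 24 h differed from that at 8 h was tested in the fit of each line. With 8CA in KG-1a, the change of 5 members was lower at 24 h than at 8 h and that of 0 was higher, against 12.7% and 11.2% of all genes, with WDR77 (−0.73, SE 0.080, adjusted p = 1.35e-05) and PRMT6 (−0.54, SE 0.085, adjusted p = 0.000339) the largest differences. With 8AA in KG-1a, it was lower for 6 and higher for 0 (10.7% and 7.64% of all genes), led by PRMT1 (−0.59, SE 0.085, adjusted p = 0.000323) and WDR77 (−0.47, SE 0.080, adjusted p = 0.000946), while PRMT6, already low at 8 h, differed by −0.040 (95% interval −0.22 to 0.14). In MV4-11 with 8CA, PRMT1 (−0.44, SE 0.071, adjusted p = 0.000751) and CLNS1A (−0.26, SE 0.061, adjusted p = 0.00770) were lower at 24 h, 2 members against 9.83% lower and 6.48% higher among all genes. With 8AA in MV4-11 no member was called by edgeR or DESeq2, against 2.12% lower and 2.51% higher, and 3 (PRMT7, WDR77, CLNS1A) had an unadjusted p under 0.05. CARM1 with 8CA in KG-1a was lost in 5 of 8 fits without a library (untreated or 8CA replicate B of either time, 8CA replicate A of 8 h), with adjusted p up to 0.141. With 8AA in KG-1a, the calls of CARM1 (adjusted p up to 0.0601) and PRMT5 (up to 0.0780) were lost without untreated replicate B of either time or 8AA replicate A of 8 h, and CLNS1A (up to 0.101) also without untreated replicate A of 24 h. PRMT3 was lost without untreated replicate A of either time or either 8AA replicate of 8 h (up to 0.130), and without 8AA replicate A of 8 h 2 of the 6 calls were left. PRMT2 was not called in any of the 4, with differences from −0.16 to 0.014.

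The line difference was tested in the fit of 24 libraries, as the change in MV4-11 minus the change in KG-1a, so that a value above 0 is a smaller fall or a larger rise in MV4-11. With 8AA at 24 h, 7 members were called, all above 0, against 8.51% below and 13.8% above 0 among 14055 genes. WDR77 (0.75, SE 0.091, adjusted p = 1.76e-06), PRMT3 (0.58, SE 0.11, adjusted p = 0.000280), PRMT1 (0.54, SE 0.084, adjusted p = 4.31e-05) and PRMT5 (0.48, SE 0.091, adjusted p = 0.000356) fell less in MV4-11. PRMT6 followed with 0.45 (SE 0.083, adjusted p = 0.000275), and CARM1 with 0.36 (SE 0.088, adjusted p = 0.00409), a call lost without KG-1a 8AA replicate B (adjusted p = 0.123). CLNS1A had 0.21 (SE 0.066, adjusted p = 0.0262), and its call was lost in 4 of the 8 fits without a library (MV4-11 untreated or 8AA replicate B, KG-1a untreated replicate A or 8AA replicate B, adjusted p up to 0.574). The CLNS1A call was also lost with library size alone, upper-quartile scaling, no filter, at least 10 counts in every library and DESeq2. The rise of PRMT2 with 8AA differed between lines by −0.071 (95% interval −0.23 to 0.088) at 8 h and 0.0039 (95% interval −0.16 to 0.16) at 24 h, and was not called as different. With 8CA at 24 h, WDR77 (0.39, SE 0.091, adjusted p = 0.00571) and PRMT6 (0.33, SE 0.083, adjusted p = 0.0108) fell less in MV4-11, 0 were below 0, and all genes had 5.44% below and 5.76% above 0. PRMT1, with −0.050 (95% interval −0.22 to 0.12), fell in both lines with 8CA at 24 h without a called difference. At 8 h, PRMT6 with 8AA (0.31, SE 0.082, adjusted p = 0.0138) was the member called (3.60% of all genes below and 7.49% above 0). With 8CA 0 were called by edgeR or DESeq2 and 0 at an unadjusted p under 0.05 (0.726% and 0.427% of all genes). The calls of PRMT6 with 8CA at 24 h (without MV4-11 8CA replicate A, KG-1a 8CA replicate A or KG-1a untreated replicate B) and with 8AA at 8 h (without MV4-11 untreated replicate B, KG-1a untreated replicate A or KG-1a 8AA replicate A) were lost in 3 of 8 fits each, with adjusted p up to 0.0918 and 0.0643.

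**Figure D5:**
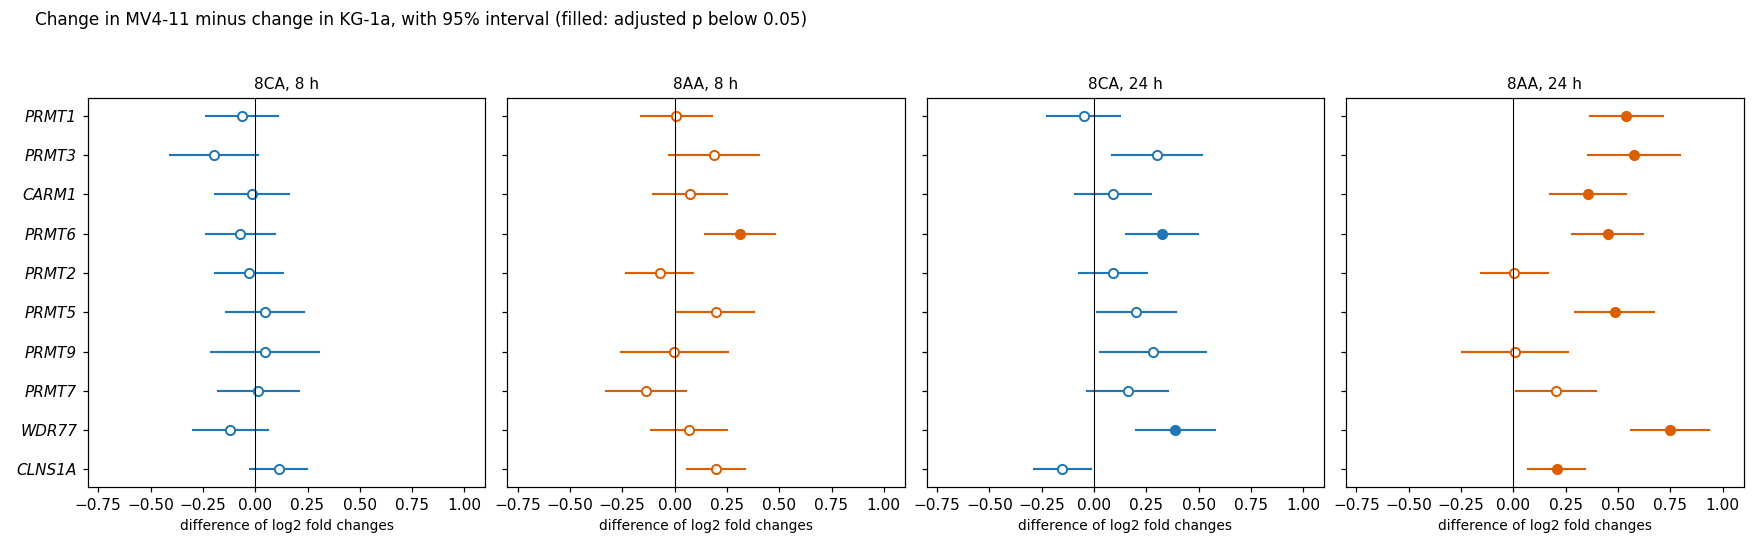
Difference between the log2 fold changes of the lines (MV4-11 less KG-1a) with its 95% interval, for each gene, drug and time, filled where the adjusted p is below 0.05. With 8AA at 24 h 7 genes have filled points above 0, from CLNS1A at 0.21 to WDR77 at 0.75, and PRMT2 and PRMT9 lie next to 0.

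Other genes of arginine methylation were counted from lists of general knowledge. These lists were chosen with earlier results of these data known, so their counts are descriptions and not independent support. Of the adaptors of PRMT5 and the genes that assemble the Sm ring of spliceosomal RNAs, 20 of 21 were tested in KG-1a, where 15 fell and 0 rose with 8AA at 24 h (26.6% and 25.4% of all genes) and 13 fell and 1 rose with 8CA (24.0% and 23.4%), with median log2 fold changes of −0.36 and −0.37. In MV4-11 all 21 were tested, with 13 lower and 1 higher with 8AA at 24 h (15.3% and 13.9% of all genes, list median −0.26) and 12 lower and 1 higher with 8CA (22.7% and 21.2%, list median −0.30). At 8 h the counts were 9 lower and 0 higher with 8AA and 3 and 0 with 8CA in MV4-11, and 6 and 0 with 8AA and 0 and 0 with 8CA in KG-1a, where the shares of all genes were 15.6% and 13.6%, 5.77% and 4.58%, 18.0% and 16.7%, and 0.181% and 0.700% in the same order. These medians stand beside medians within 0.014 of 0 over all genes tested. Without untreated replicate B, 8AA replicate A or 8AA replicate B, the 6 calls with 8AA at 8 h in KG-1a became 3, and without untreated replicate B the 3 with 8CA at 8 h in MV4-11 became 1. GEMIN5, which recognises the small nuclear RNAs, was called lower in 7 of 8 comparisons and fell by 1.03 (SE 0.068, adjusted p = 9.56e-09) in KG-1a with 8AA at 24 h, and GEMIN4, of the same SMN complex, was called lower in 7, with a log2 change of −0.66 (SE 0.069, adjusted p = 1.25e-06) there. RIOK1, the adaptor that brings nucleolin to PRMT5 in place of CLNS1A, fell in 6, with a log2 change of −0.61 (SE 0.053, adjusted p = 7.85e-07) at 8 h and −0.75 (SE 0.055, adjusted p = 3.30e-08) at 24 h with 8AA in KG-1a. The RIOK1 call with 8CA at 24 h in KG-1a was lost on leaving out any of its 4 libraries (adjusted p up to 0.120) and by DESeq2, and that with 8CA at 8 h in MV4-11 without untreated replicate A or B or 8CA replicate B (up to 0.211) and by DESeq2. SNRPD1, an Sm protein methylated by PRMT5, fell in 6, with a log2 change of −0.44 (SE 0.054, adjusted p = 9.97e-06) with 8CA and −0.37 (SE 0.054, adjusted p = 3.25e-05) with 8AA in KG-1a at 24 h. Its call with 8AA at 8 h in KG-1a was lost without untreated replicate B or either 8AA replicate (adjusted p up to 0.139), and that of GEMIN4 with 8CA at 8 h in MV4-11 without untreated replicate B or 8CA replicate A (up to 0.0653). SMN1 and SMN2 are near-identical copies, so their counts are uncertain.

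Among 21 substrates of arginine methylation, all tested, 13 fell and 1 rose with 8AA in KG-1a at 24 h (26.6% and 25.4% of all genes) and 13 fell and 2 rose with 8CA (24.0% and 23.4%). In MV4-11 at 24 h 11 fell with either drug, with 0 higher with 8AA (15.3% and 13.9% of all genes) and 2 with 8CA (22.7% and 21.2%). The 11 calls with 8AA became 7 without untreated replicate A and 6 without untreated replicate B or 8AA replicate A. The medians were −0.24, −0.20, −0.12 and −0.13. At 8 h, 5 fell and 2 rose with 8AA and 3 and 1 with 8CA in MV4-11 (15.6% and 13.6%, and 5.77% and 4.58%, of all genes), and 6 and 2 with 8AA and 0 and 1 with 8CA in KG-1a (18.0% and 16.7%, and 0.181% and 0.700%). Of these, the 8 calls with 8AA in KG-1a became 5 without 8AA replicate A, the 4 with 8CA in MV4-11 became 2 without untreated replicate A or 8CA replicate B, and the 1 with 8CA in KG-1a became 0 without untreated replicate A or 8CA replicate A. NCL (nucleolin) was called lower in 7 of 8 comparisons, with a log2 change of −0.80 (SE 0.045, adjusted p = 2.23e-09) in KG-1a with 8AA at 24 h, and SERBP1, an mRNA-binding protein, in 7, with a log2 change of −0.62 (SE 0.046, adjusted p = 3.48e-08) there. The SERBP1 calls in MV4-11 with 8CA at 8 h (without untreated replicate A or 8CA replicate B, adjusted p up to 0.300) and with 8AA at 24 h (without untreated replicate B, 0.0579) were lost on leaving out a library. GAR1, of the complexes that pseudouridylate RNA, fell in 6, with a log2 change of −0.47 (SE 0.091, adjusted p = 0.000446) in KG-1a with 8AA at 24 h, and its call with 8AA at 24 h in MV4-11 was lost without untreated replicate B (adjusted p = 0.0646).

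Of 8 Tudor-domain readers and enzymes that remove or convert methylarginine, 7 were tested, and at most 3 fell and 1 rose in any comparison. At 24 h the counts were 2 lower and 0 higher with 8AA (26.6% and 25.4% of all genes) and 3 and 1 with 8CA (24.0% and 23.4%) in KG-1a, and 1 and 0 with either drug in MV4-11 (15.3% and 13.9% with 8AA, 22.7% and 21.2% with 8CA). The 2 of 7 and 1 of 7 with 8AA lay near the shares of all genes called lower. The 1 call with 8AA in MV4-11 became 0 without untreated replicate B or either 8AA replicate. At 8 h they were 1 and 0 with 8AA in KG-1a, 0 and 0 with 8CA there, 2 and 1 with 8AA in MV4-11 and 2 and 0 with 8CA there, which became 1 in all without untreated replicate B or 8CA replicate A. The shares of all genes were 18.0% and 16.7%, 0.181% and 0.700%, 15.6% and 13.6%, and 5.77% and 4.58% in that order. The medians lay between −0.26 (KG-1a, 8CA, 24 h) and 0.027 (MV4-11, 8AA, 24 h). AKAP1, a mitochondrial anchoring protein with a Tudor domain, fell in 5, with a log2 change of −0.63 (SE 0.065, adjusted p = 9.35e-07) in KG-1a with 8AA at 24 h, and SND1, a nuclease-like Tudor protein, in 2, with a log2 change of −0.39 (SE 0.050, adjusted p = 8.99e-06) there. JMJD6, an oxygenase described as an arginine demethylase, fell in 4, with a log2 change of −0.37 (SE 0.082, adjusted p = 0.00945) with 8CA at 8 h in MV4-11, where the call was lost without untreated replicate B or 8CA replicate A (adjusted p up to 0.0812). Its calls with 8AA in that line were lost without untreated replicate B at 8 h (0.0565) and without untreated replicate B or either 8AA replicate at 24 h (up to 0.249). PADI2, which converts arginine to citrulline, fell by 1.33 (SE 0.35, adjusted p = 0.00566) with 8CA at 24 h in KG-1a and rose by 0.92 (SE 0.21, adjusted p = 0.00407) with 8AA at 8 h in MV4-11, a call lost without untreated replicate B (adjusted p = 0.0504) and by DESeq2.

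Of 11 genes that supply or use SAM, all tested, 8 fell and 1 rose with 8AA at 24 h in KG-1a (26.6% and 25.4% of all genes, list median −0.31), and 4 fell and 0 rose with 8CA there (24.0% and 23.4%, list median 0.013). The 4 calls with 8CA became 2 without untreated replicate B or either 8CA replicate. In MV4-11 at 24 h 3 fell and 2 rose with 8AA (15.3% and 13.9% of all genes) and 2 and 3 with 8CA (22.7% and 21.2%), with list medians of −0.064 and −0.066. The 5 calls with 8AA became 2 without untreated replicate A, 1 without untreated replicate B, 3 without 8AA replicate A and 0 without 8AA replicate B, and the 5 with 8CA became 2 without untreated replicate B or 8CA replicate B and 3 without 8CA replicate A. At 8 h 5 fell and 1 rose with 8AA and 2 and 0 with 8CA in MV4-11, and 3 and 1 with 8AA and 1 and 0 with 8CA in KG-1a, beside 15.6% and 13.6%, 5.77% and 4.58%, 18.0% and 16.7%, and 0.181% and 0.700% of all genes. Of these, the 2 calls with 8CA in MV4-11 became 1 without untreated replicate A or 8CA replicate B, and the 4 with 8AA in KG-1a became 2 without 8AA replicate A. MAT2A fell in 6 of 8 comparisons, with a log2 change of −0.41 (SE 0.040, adjusted p = 3.75e-06) and −0.36 (SE 0.040, adjusted p = 8.00e-05) with 8AA and 8CA at 8 h in MV4-11. Its log2 change at 24 h in KG-1a was −0.43 (SE 0.040, adjusted p = 3.99e-07) with 8AA and −0.23 (SE 0.040, adjusted p = 0.000235) with 8CA. The MAT2A call with 8CA at 8 h in KG-1a (−0.24), the 1 call of the list there, was lost on leaving out any of its 4 libraries (adjusted p up to 0.207). At 24 h in MV4-11 it was at 0.0017 with 8AA and −0.061 with 8CA and was not called. PRMT1, CARM1, PRMT6, WDR77 and CLNS1A were called lower in both of these comparisons, and some of these calls were lost without a library, as given above. Whether the changes of the members are linked to MAT2A was not tested. MTAP, which clears methylthioadenosine, an inhibitor of PRMT5, fell in 6, with a log2 change of −0.58 (SE 0.061, adjusted p = 1.16e-06) in KG-1a with 8AA at 24 h, and AMD1, which commits SAM to polyamine synthesis, in 6, with a log2 change of −0.57 (SE 0.063, adjusted p = 2.89e-06) with 8CA there. Of the MTAP calls, 4 were lost without a library. These were with 8CA at 24 h in MV4-11 (untreated or 8CA replicate B, adjusted p up to 0.149), with 8AA at 24 h in MV4-11 (any of the 4, up to 0.129), with 8AA at 8 h in KG-1a (8AA replicate A, 0.0543) and with 8CA at 24 h in KG-1a (untreated replicate B or either 8CA replicate, up to 0.220). AMD1 lost 3 of its calls, all in MV4-11, with 8CA at 8 h (untreated replicate A or 8CA replicate B, up to 0.0826), with 8CA at 24 h (untreated or 8CA replicate B, up to 0.133) and with 8AA at 24 h (untreated or 8AA replicate B, up to 0.315). AHCYL2, a relative of the enzyme that clears S-adenosylhomocysteine, rose in 5, by 0.32 at most, and each of these calls was lost without at least 1 library (adjusted p up to 0.352).

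Of 6 related enzymes and modulators of PRMT1, 5 passed the filter in MV4-11, and 4 did in KG-1a. PRMT8, a type I enzyme of the brain, had a mean of 0 CPM in every group. In KG-1a 3 rose and 0 fell with 8AA at 8 h, with 8CA at 24 h and with 8AA at 24 h, and 0 did with 8CA at 8 h (list medians 0.26, 0.21, 0.30 and 0.035), where 16.7%, 23.4%, 25.4% and 0.700% of all genes were called higher. In MV4-11 2 rose with 8CA at each time, 1 rose with 8AA at 8 h and 1 fell with 8AA at 24 h (list medians 0.039, −0.0094, 0.16 and 0.020), where 4.58%, 21.2% and 13.6% of all genes were called higher and 15.3% lower. Without 1 library, the 2 calls with 8CA in MV4-11 became 1 at 8 h (untreated replicate A or B, or 8CA replicate B) and 0 (untreated replicate A) or 1 (either 8CA replicate) at 24 h. The 3 in KG-1a became 1 with 8AA at 8 h (8AA replicate B) and with 8CA at 24 h (untreated replicate A). BTG1 and BTG2, antiproliferative proteins that bind PRMT1, rose in 6 and 5 of 8 comparisons. BTG2 rose by 1.39 (SE 0.096, adjusted p = 1.44e-08) with 8AA and 0.77 (SE 0.10, adjusted p = 1.57e-05) with 8CA in KG-1a at 24 h, and BTG1 by 0.46 (SE 0.078, adjusted p = 0.00203) with 8CA at 8 h in MV4-11. BTG1 lost 3 of its calls without a library, with 8CA at 24 h in MV4-11 (untreated or 8CA replicate A, adjusted p up to 0.167), with 8AA at 8 h in KG-1a (untreated replicate A or 8AA replicate B, up to 0.120) and with 8CA at 24 h in KG-1a (untreated or 8CA replicate A, up to 0.0580). BTG2 also lost 3, with 8CA in MV4-11 at 8 h (untreated replicate A or B, or 8CA replicate B, up to 0.122) and at 24 h (untreated replicate A or 8CA replicate B, up to 0.0644), and with 8AA at 8 h in KG-1a (untreated or 8AA replicate B, up to 0.114). NDUFAF7, a mitochondrial methyltransferase for complex I, rose in the 3 KG-1a comparisons with calls, by 0.33 (SE 0.067, adjusted p = 0.00139) with 8AA at 8 h, though the call with 8CA at 24 h was lost without untreated replicate A or B or 8CA replicate B (adjusted p up to 0.104). It fell in MV4-11 with 8AA at 24 h, with a log2 change of −0.24 (SE 0.073, adjusted p = 0.0218), a call lost without untreated replicate B, 8AA replicate A or 8AA replicate B (adjusted p up to 0.140). The changes of METTL23, a methyltransferase-like protein, lay between −0.18 and 0.17 and were not called.

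For each member, the gene with the most similar pattern was found among 9878 genes, as the one with the largest value of the smaller of its Pearson correlations over the 12 libraries of MV4-11 and the 12 of KG-1a. The points share their treatment groups and untreated libraries, so these values are descriptions. WDR77 was most like SRM, the spermidine synthase (r = 0.979 in MV4-11 and 0.978 in KG-1a), and PRMT1 most like NUDC (0.984 and 0.984). PRMT3 was most like NUDCD1 (0.962 and 0.982) and PRMT5 most like ATIC, an enzyme of purine synthesis (0.964 and 0.984). CARM1 was most like POLDIP2 (0.981 and 0.986), PRMT6 most like DSCC1 (0.960 and 0.957), and CLNS1A most like the mitochondrial phosphate carrier SLC25A3 (0.869 and 0.886). PRMT2, which rose, was most like GCNT1 (0.948 and 0.907), and PRMT9 most like ZNF345 (0.921 and 0.916). PRMT7, which was called least often, had the weakest match, STK25 (0.785 and 0.750). Within the members, PRMT5 and WDR77 had r = 0.799 in MV4-11 and 0.944 in KG-1a, PRMT5 and CLNS1A 0.561 and 0.647, and PRMT2 and PRMT3 −0.713 and −0.658, over 12 libraries per line. WDR77 was closer to PRMT1 than to PRMT5 in both lines, with 0.921 and 0.96, and PRMT5 and PRMT1 had 0.738 and 0.971. A high value was thus not particular to PRMT5 and its partners.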

How the data were processed

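The authors deposited 1 table of read counts per gene for 24 RNA-seq libraries. Their processing notes name Trimmomatic, STAR 2.6.0, HTSeq 0.11.1 and edgeR, with the builds hg19 and hg38 and no role for either. Which build gave the deposited gene positions is not given in the sources used here. These positions differ from those of GRCh38 by 21.4 to 1420 kb for the members, so RefSeq promoters were matched by symbol and not by position. Whether counting used strand is not given either.

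The 10 members and all gene lists were chosen with earlier results of these data known. Groups were taken from the labels, and all 24 columns matched a library. The deposited counts were tested with edgeR 4.0.16 (R 4.3.3, limma 3.58.1): filterByExpr with a minimum count of 10, TMM scaling, 1 coefficient per group and the quasi-likelihood test, with Benjamini-Hochberg adjustment over all genes and a threshold of 0.05. The 12 libraries of a line shared 1 fit (12800 genes in MV4-11, 12711 in KG-1a), and line differences used all 24 (14055 genes). Intervals are 95% intervals of the fit. Total counts of 18633963 to 24520078 per library set the counting error. The fitting was tested on simulated data. All members were named in each comparison, and from each further list up to 4 genes, those called in the same direction in the most treated comparisons, with MAT2A and MTAP always named. A gene that this rule names is not reported here. For likeness, genes had a mean log2 CPM of at least 1. Alternatives were DESeq2 size factors, library size alone, upper-quartile scaling, no filter, at least 10 counts in every library, DESeq2 1.42.0 (Wald test), 4 or 24 libraries in a fit, a fold threshold of 0.5 (log2), the replicate letter as a block, and leaving out each library. The single library then left in a group was assumed to vary like those of the other groups.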

Additional observations from a re-analysis of the deposited data

Results flagged for a closer look

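Changes of 13 members and drugs differed between 8 h and 24 h, and 10 differed between the cell lines, by edgeR's quasi-likelihood test of the difference itself with Benjamini-Hochberg adjustment. Values are log2 differences.

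For the change at 24 h minus the change at 8 h, MV4-11 with 8CA had −0.44 for PRMT1 and −0.26 for CLNS1A. KG-1a with 8CA had −0.73 for WDR77, −0.54 for PRMT6, −0.46 for PRMT3, −0.44 for PRMT1 and −0.31 for CARM1. KG-1a with 8AA had −0.59 for PRMT1, −0.47 for WDR77, −0.37 for CARM1, −0.33 for PRMT5, −0.32 for PRMT3 and −0.25 for CLNS1A. Every one of these 13 differences was below 0, a lower level relative to untreated cells at 24 h.

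For the change in MV4-11 minus the change in KG-1a, 8AA at 24 h had 0.75 for WDR77, 0.58 for PRMT3, 0.54 for PRMT1, 0.48 for PRMT5, 0.45 for PRMT6, 0.36 for CARM1 and 0.21 for CLNS1A. With 8CA at 24 h the difference was 0.39 for WDR77 and 0.33 for PRMT6, and with 8AA at 8 h it was 0.31 for PRMT6. All 10 were above 0. Among all genes, 8.51% were below and 13.8% above 0 with 8AA at 24 h. With 8CA at 24 h these shares were 5.44% and 5.76%, and with 8AA at 8 h 3.60% and 7.49%. Here too libraries are shared, and some of the calls were lost under other processing or without 1 library. The KG-1a libraries with 8AA at 24 h, which enter 7 of the 10 differences, were the replicates least alike, and their part in these differences was not tested.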

How the results depend on the processing

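Of 45 member calls against untreated cells, 38 held in each alternative scaling, filter and fit and 31 also in each fit without 1 library, and of the 17, 13 and 10 calls between drugs, times and lines 13, 8 and 6 did. Of 103 calls of the genes named from the further lists, 87 held in each alternative scaling, filter and fit and 70 in each fit without 1 library. The causes were not tested. In MV4-11 with 8CA at 8 h, the count of 1 became 2 with DESeq2 size factors or 24 libraries in the fit, 3 with the replicate block, and 0 with upper-quartile scaling, DESeq2, 4 libraries in the fit or the fold threshold. At that threshold of 0.5 the counts were 0 in MV4-11 with 8AA at 8 h and at 24 h and 1 with 8CA at 24 h, and 3 in KG-1a with 8AA at 8 h and 2 with 8CA at 24 h. Between drugs in MV4-11, 1 was called at 8 h with library size, upper-quartile scaling, 10 counts in every library or DESeq2, and 2 at 24 h with DESeq2. For the time difference in MV4-11 with 8AA, 1 was called with library size, upper-quartile scaling, 10 counts in every library or the replicate block. Among untreated cells over time, 1 was called in KG-1a with library size or upper-quartile scaling and 1 in MV4-11 with no filter or the replicate block. The line difference with 8AA at 8 h had 0 with no filter or DESeq2, and that with 8CA at 24 h had 1 with no filter. Without 1 library, counts ranged from 0 to 1 in MV4-11 with 8CA at 8 h, from 5 to 7 with 8AA at 24 h (5 without untreated replicate A), from 1 to 2 between drugs in MV4-11 at 8 h and from 2 to 2 at 24 h, from 0 to 1 over time in MV4-11 with 8AA, from 2 to 6 over time in KG-1a with 8AA, from 0 to 0 in untreated KG-1a over time, from 0 to 1 between lines with 8AA at 8 h and from 1 to 3 with 8CA at 24 h. Uncalled values near 0 changed sign. CLNS1A in KG-1a with 8CA at 8 h became −0.0042 (DESeq2 size factors and DESeq2), −0.0051 (upper-quartile), −0.002 (no filter), −3e-04 (10 counts in every library) and −0.001 (24 libraries), and ranged from −0.0193 to 0.0202 without 1 library. PRMT7 became 0.0134 (library size) and 0.007 (upper-quartile) in MV4-11 with 8CA at 8 h, and 0.015 (library size) in KG-1a with 8AA at 24 h. Without 1 library it ranged from −0.0964 to 0.0426 in the former and from −0.0706 to 0.0359 in KG-1a with 8CA at 8 h, where PRMT3 ranged from −0.0284 to 0.1036. In KG-1a with 8CA at 24 h, PRMT2 ranged from −0.1535 to 0.0633 and CLNS1A from −0.0148 to 0.0329. The replicate letters were not taken to pair the libraries, since correlations of same-letter deviations ran from −0.117 to 0.159 in MV4-11 and from −0.085 to 0.161 in KG-1a, and were over 0.1 in 6 and 2 of 15 pairs of groups. Among the MV4-11 groups of 8 h, all 3 were over 0.1 (0.132 to 0.159), and there the block gave the 3 calls with 8CA. Each group has 2 libraries, and PRMT9, with as few as 237 reads in a library, has the largest counting error.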
